A study of Danio rerio with 4 samples.

Results

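The data describe how zebrafish embryos injected with the morpholino MO-Bad developed between 12 and 24 hours post fertilization (hpf). The 4 samples labelled with Cy5, 2 at 24 hpf and 2 at 12 hpf, are those of the 8 labelled samples in the series that hold RNA of injected embryos, and they were chosen by dye label, not by measured values. Each sample was total RNA from a pool of 200 whole embryos. At the 1-cell stage the embryos were given MO-Bad in a volume of 2 to 3 nl, and incubation was at 28 °C under a cycle of 14 light and 10 dark hours. Wild-type embryos of the same ages, listed as controls, were hybridized in Cy3 on the same 4 arrays. The labels name Bad as the target, and name neither a control morpholino, a dye swap nor the kind of morpholino. They give the 2 arrays of an age as biological replicates, so each p-value below rests on 2 pools per age. In limma the variance of a probe is moderated towards that of all probes kept. P-values and SE therefore do not measure the spread between a gene's own 2 pools alone.

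Bad belongs to the BH3-only branch of the Bcl-2 proteins and favours cell death by binding survival proteins such as Bcl-2. Between 12 and 24 hpf a zebrafish embryo passes from early segmentation to the start of the pharyngula period. The last germ layer and axis genes decline, somites form and become contractile muscle, the heart starts to beat, and the first neurons, lens fibres and pigment cells differentiate. Maternal RNA left from the egg is cleared early in development.

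All 4 arrays were on 1 slide with the same scan time. The median Cy5 spot signal was 131 and 136 units at 24 hpf, against 92 and 88.5 units at 12 hpf, over a median local background of 48.5 to 49 units. The share of probes well above background in Cy5 was 62.8% and 64.9% at 24 hpf, against 60.6% and 57.9% at 12 hpf, and 0 spots were saturated. Normalized log2 values of the 2 arrays of an age correlated at 0.998 across probes, and those of arrays of different ages at 0.899 to 0.905 (probes are not independent replicates). Markers went with the labelled ages. Of the segmentation markers 7 (her1, her7, mespba, tbx16, tbx6, ripply1 and dlc) were measured and fell by 24 hpf, and of the markers of the older stage 7 (mylpfa, ckma, hbae3, hbbe3, elavl3, cryba1b and mpx) were measured and rose, while mespbb, msgn1 and nppa were not measured.

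Most of the measured transcriptome moved over these 12 h. Of 10124 genes with a probe above background in Cy5 at either age, 3589 (35.5%) were higher at 24 hpf and 4310 (42.6%) lower at an adjusted p under 0.05 in limma, 78.0% in either direction, so a call alone says little here and sizes are given throughout. Higher genes made up 45.4% of these calls, and 35.6% when each array was scaled to its 75th percentile, which moved the median of all genes to -0.29. The median change over all genes tested was -0.09 on the log2 scale, and the median size of a called change 0.73. Changes of at least 2-fold were called for 1535 genes upward and 1124 downward, and changes of at least 8-fold for 327 upward and 88 downward. Above background on both arrays at 24 hpf, on neither at 12 hpf, and called were 574 genes (5.67%), described as switched on below. The opposite pattern, described as switched off, was found for 122 genes (1.21%). These terms mean that a probe crossed the scanner's background limit, not that a transcript was absent, and a gene measured at 1 age only had to differ. For such genes the fold is given as a bound, against the higher of the probe's own signal and the array's lowest signal above background. For 1 array of each age that lowest signal was only 5.66 in log2 units, so it rarely raised a bound's reference level by much. Bounds of named genes equal the measured fold, as for mylpfa, or lie little below it, as for trim63a (179-fold, measured 183-fold). Folds given as "at least" are thus close to measured folds and are not cautious limits. Such a bound leaves no margin for the spread between arrays. Changes are log2 differences, 24 hpf minus 12 hpf, of normalized Cy5 intensity carrying an added offset of 50 units, which understates the change of dim genes. Since RNA came from whole embryos, more cells of a type and more RNA per cell cannot be told apart.

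**Figure D1:**
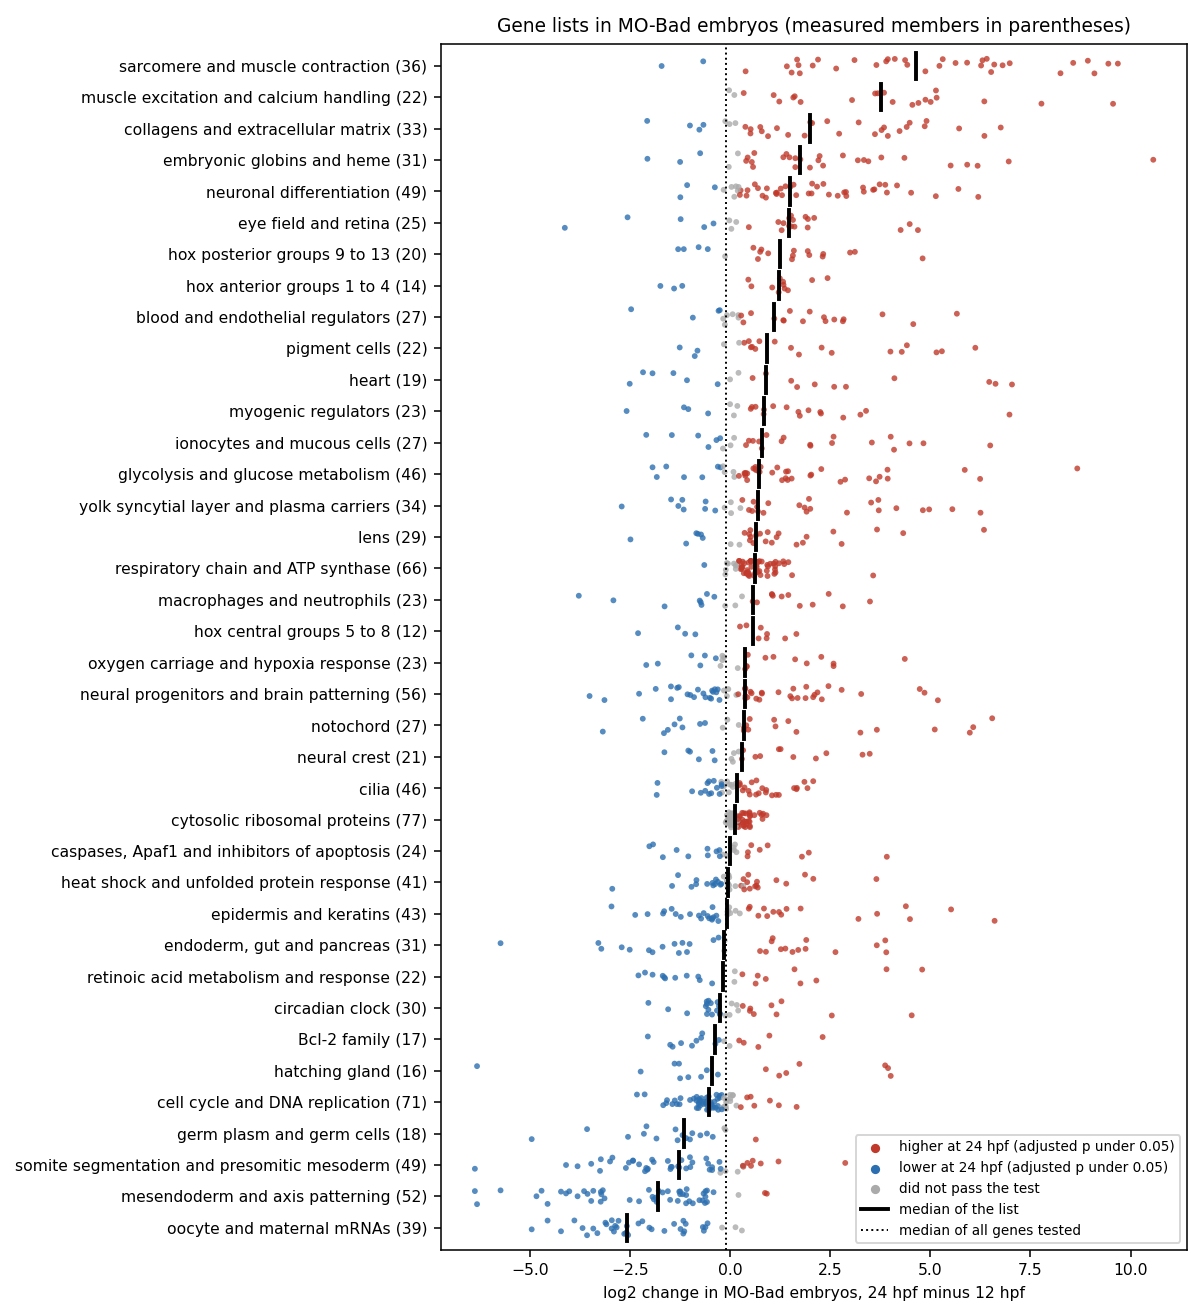
Log2 change between 24 and 12 hpf in MO-Bad embryos (x axis) for the measured members of 38 gene lists (y axis, ordered by median, number of measured members in parentheses), with 1 point per gene coloured by its call, a black bar at the list median and a dotted line at the median of all genes tested, -0.09. Sarcomere genes had the highest median, 4.65, and oocyte and maternal mRNAs the lowest, -2.58.

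Muscle had the largest rise of the lists. Of 36 measured sarcomere and contraction genes 34 rose and 2 fell, with a median change of 4.65. Of 22 measured genes of muscle excitation and calcium handling 20 rose and 0 fell, with a median of 3.77. These medians were 6.45 and 5.12 with the scanner's processed signals. Of the members above background on all 4 arrays, 24 of 25 and 8 of 8 rose, against 32.2% higher and 45.3% lower of all genes measured on all 4 arrays. The fast muscle regulatory light chain mylpfa had log2 values of 16.34 and 16.39 at 24 hpf, against 6.59 and 6.77 at 12 hpf, when it was not well above background on either array, and was at least 823-fold higher (adjusted p = 1.45e-08). The myosin light chain myl1, with 15.96 and 15.92 at 24 hpf, against 6.53 and 6.46 at 12 hpf, was at least 698-fold higher. The sarcoplasmic calcium pump atp2a1 was at least 757-fold higher, the creatine kinase ckmb at least 548-fold and the calcium buffer pvalb2 at least 305-fold. Caveolin-3 (cav3), a protein of the muscle plasma membrane, and the muscle ubiquitin ligase trim63a were also switched on, at least 219-fold and 179-fold higher. These switched-on genes were picked for their large bounds, so the gap between the ages follows from the selection. Genes measured at both ages rose by similar amounts: the light chain myl13 by 8.93 ± 0.08 (SE, n = 2 arrays per age), the troponin C genes tnnc2.2 and tnnc1b by 8.57 and 7.07, the light chain mylpfb by 6.98 and the troponin T gene tnnt2c by 6.87. Other genes among the 12 largest rises were klhl31, a kelch family gene of skeletal muscle, at 7.27, txlnbb at 7.63 and the alpha-tubulin gene tuba8l3 at 7.92. Of the 2 members that fell, the slow myosin gene smyhc2 was switched off, at least 1.56-fold lower, with 6.51 and 6.35 at 24 hpf, against 7.08 and 7.13 at 12 hpf, a call lost when each array was scaled to its 75th percentile, and the troponin I gene tnni2b.2 had 6.77 and 7.68 at 24 hpf, against 8.94 and 8.92 at 12 hpf.

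Among muscle transcription factors, late ones rose and an early one fell. Myogenin (myog), which drives terminal differentiation, had 13.99 and 14.04 at 24 hpf, against 7.02 and 7.05 at 12 hpf, a rise of 6.98 ± 0.07 (adjusted p = 2.12e-08). The early determination factor myf5 had 11.29 and 11.54 at 24 hpf, against 14.01 and 13.99 at 12 hpf, a change of -2.58 (adjusted p = 1.46e-06). These 2 factors moved in opposite directions. Both were picked for large called changes, so the gap between the ages follows from the selection. The other determination factor, myod1, rose by 1.08 and the muscle fusion gene mymk by 0.64. Of the MEF2 factors, which act with the myogenic factors, mef2ca rose by 3.25 and mef2aa was switched on, at least 7.09-fold higher, and rbfox1l, a regulator of muscle splicing, rose by 3.4. The slow fibre determinant prdm1a changed by -1.04 and the homeobox gene six4b by -1.15. Of 23 measured myogenic regulators 16 rose and 4 fell, with a median of 0.85.

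**Figure D2:**
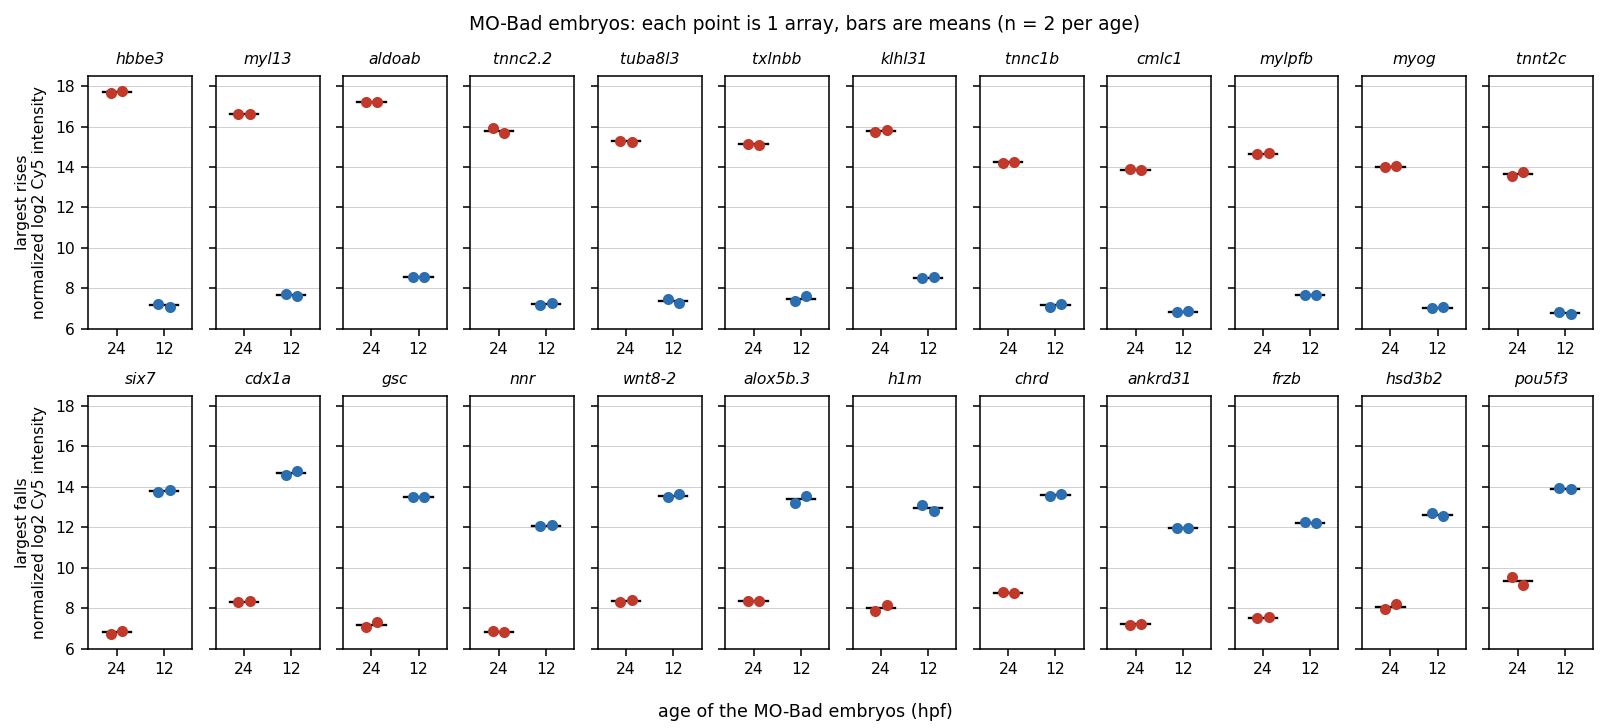
Normalized log2 Cy5 intensity (y axis) of each MO-Bad array at 24 hpf (left, red) and 12 hpf (right, blue) for the 12 largest rises (top row) and the 12 largest falls (bottom row) among genes above background on all 4 arrays, with bars at the means of 2 arrays. For each gene the 2 arrays of an age lie close together, and the means of the 2 ages are at least 4.56 apart on the log2 scale. Genes were picked for large called changes with the same sign in all 4 pairings of arrays, so this gap follows from the selection.

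In the heart, contractile genes rose while several early cardiac regulators fell. Of 19 measured genes 11 rose and 6 fell, with a median of 0.9. The cardiac light chain gene cmlc1 rose by 7.04. Switched on were the cardiac light chain myl7, at least 94.3-fold higher, the cardiac troponin T gene tnnt2a, at least 86.4-fold, and myh7, entered in the list as vmhc, the ventricular myosin, at least 16.9-fold. For cmlc1 the values were 13.90 and 13.85 at 24 hpf, against 6.81 and 6.85 at 12 hpf. The zinc finger factor gata6, which acts in heart and endoderm progenitors, had 9.75 and 10.02 at 24 hpf, against 12.42 and 12.36 at 12 hpf, a change of -2.51 (adjusted p = 2.12e-06). Its relatives gata5 and gata4 changed by -1.94 and -1.08, and the cardiac homeobox gene nkx2.7 by -1.41, while nkx2.5 rose by 2.11. The hyaluronan synthase has2, needed for the cardiac valves, fell by 2.17. Over the 12 members above background on all 4 arrays, 4 rose and 6 fell and the median was -0.15; the remaining rises included 6 genes that were switched on. The list median was 0.39 with no filter and 1.6 with processed signals.

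Red cell genes held the largest rise of any gene measured at both ages. The embryonic beta globin hbbe3 had 17.68 and 17.75 at 24 hpf, against 7.21 and 7.09 at 12 hpf, a rise of 10.57 ± 0.08 (adjusted p = 1.32e-08). The globins hbbe2, hbae3 and hbae1.1 rose by 6.96, 6.18 and 5.92. Globin genes are close copies of one another, so their probes may not separate them. Of 9 measured enzymes of heme synthesis 8 rose and 0 fell, with a median of 1.48, led by alas2, the first enzyme of the erythroid pathway, at 3.78. The red cell anion exchanger slc4a1a rose by 4.35, and the erythroid factor gata1a and the membrane skeleton gene ank1a were switched on, at least 10.1-fold and 45.5-fold higher. Of the whole list of 31 measured genes 26 rose and 3 fell. Among those that fell were the red cell carbonic anhydrase cahz at -2.06, the Krüppel-like factor klf17 at -1.25 and the globin hbaa2 at -0.75.

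Of 27 measured regulators and markers of blood and endothelium 17 rose and 4 fell, with a median of 1.11. The median was 0.27 with no filter on background and 1.83 with processed signals, and of the 22 members above background on all 4 arrays 13 rose and 4 fell. The endothelial lectin clec14a had 12.50 and 12.51 at 24 hpf, against 6.84 and 6.83 at 12 hpf, a rise of 5.66. The ETS factor fli1rs rose by 4.57, the vessel gene egfl7 by 3.81, and plvapb, a component of endothelial diaphragms, was at least 7.14-fold higher. The haematopoietic factor tal1 rose by 2.6, while gata2a changed by -2.47 and the apelin receptor gene aplnrb by -0.93. Results were mixed for macrophage and neutrophil genes, of which 12 of 23 rose (52.2%) and 8 fell (34.8%), against 35.5% and 42.6% of all genes. The NADPH oxidase subunit ncf1 rose by 2.06 and mfap4.1, a macrophage marker, by 2.82. The oxidase subunit cyba fell by 2.91. The actin bundling gene lcp1 of leukocytes changed by -3.78 (adjusted p = 9.58e-08). Over the 15 members above background on all 4 arrays the median was -0.12, against 0.56 over the measured members.

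Measured nerve cell genes were mostly higher. Of 49 measured genes of neuronal differentiation 40 rose and 3 fell, with a median of 1.51, and 19 of the rises were genes switched on. Of the 26 members above background on all 4 arrays 20 rose and 3 fell. The list median was 2.85 with the scanner's processed signals. The microtubule regulator stmn1b had 13.34 and 13.49 at 24 hpf, against 7.26 and 7.18 at 12 hpf, a rise of 6.2 ± 0.09 (adjusted p = 3.22e-08). Genes of the synaptic vesicle machinery rose alongside: stxbp1a by 5.7 and snap25a, which was switched on, at least 35.2-fold. The proneural factor neurod1 rose by 3.88 and the RNA-binding protein elavl3, a general neuronal marker, by 1.96. Its relative elavl2 changed by -1.24, the autonomic neuron factor phox2a by -1.07 and neurog1, an early proneural factor, by -0.38.

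**Figure D3:**
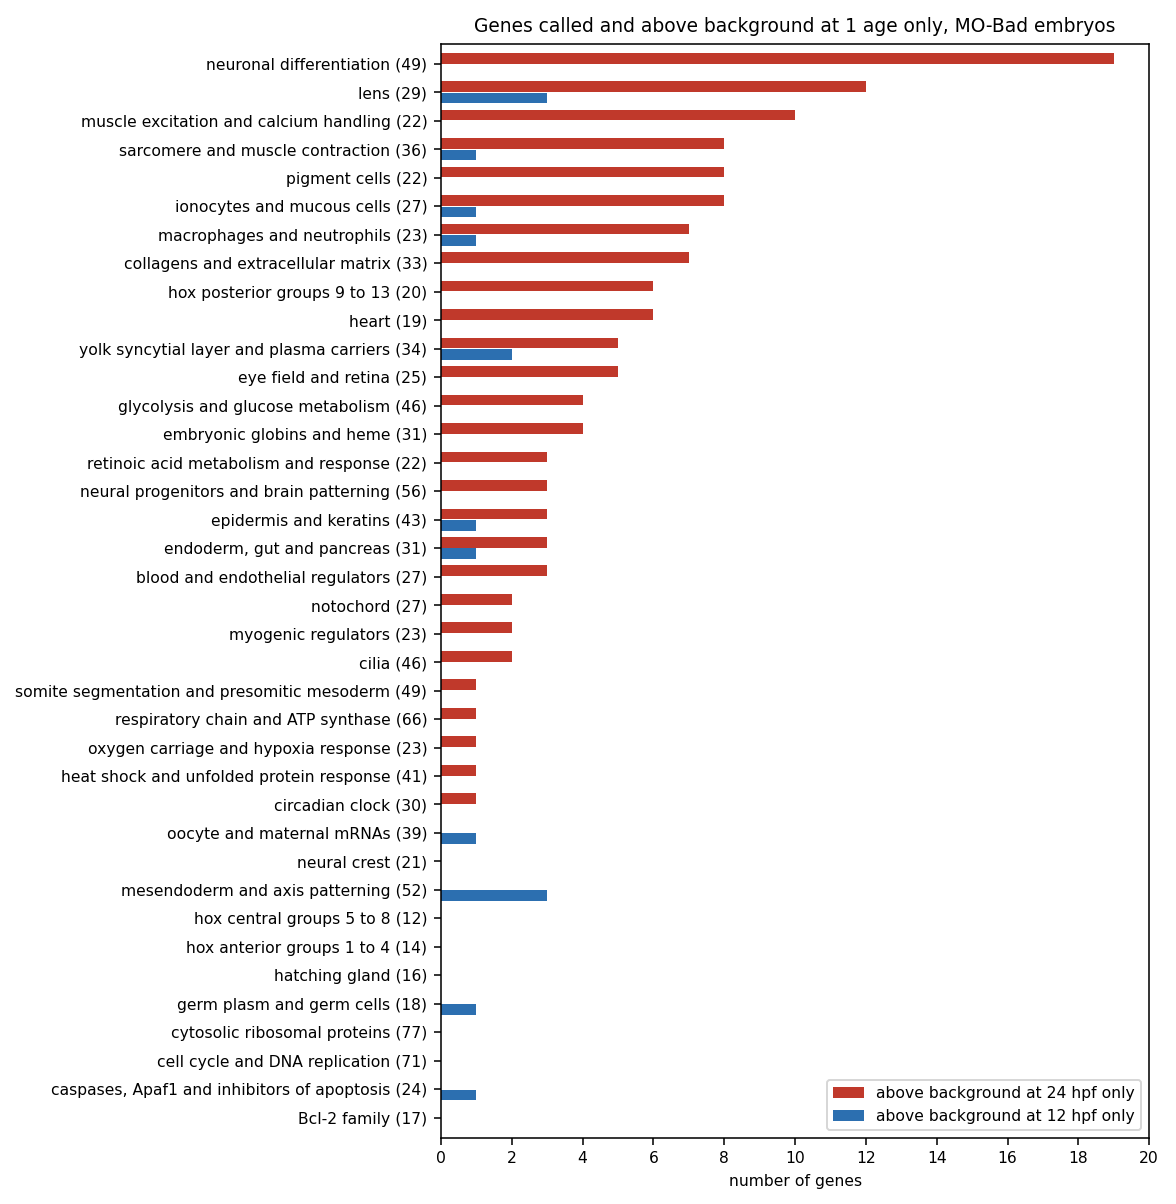
Number of genes (x axis) per list (y axis, measured members in parentheses) that were called and above background in MO-Bad embryos at 24 hpf only (red, upper bar) or at 12 hpf only (blue, lower bar). Neuronal differentiation had 19 genes in the first class and 0 in the second, and lens had 12 and 3.

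Brain patterning genes divided, 29 up (51.8%) and 22 down (39.3%) of 56, against 35.5% and 42.6% of all genes. Their median was 0.38, and -0.00103 when each array was scaled to its 75th percentile. The radial glia genes fabp7a and gfap rose by 5.19 and 4.86. The midbrain-hindbrain factors en1b and en2b rose by 4.74 and 3.27, the telencephalic factor foxg1a by 2.46, and the forebrain genes dlx2a and dlx5a by 1.58 and 2.18. Several genes of the early neural plate fell. The anterior repressor hesx1 had 8.05 and 8.20 at 24 hpf, against 11.54 and 11.72 at 12 hpf, a change of -3.51 (adjusted p = 3.20e-07), and irx7 changed by -3.14. The 3 measured otx genes, which mark the forebrain and midbrain primordium, all fell, otx1 with a change of -1.28, otx2a of -1.47 and otx2b of -1.86. The growth factor gene fgf8a fell by 2.27.

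In the eye, 2 genes of 1 family moved in opposite directions. The homeobox gene rx3, which specifies the eye field, had 10.22 and 10.15 at 24 hpf, against 14.28 and 14.33 at 12 hpf, a change of -4.13 (adjusted p = 7.02e-08). Its relative rx1, expressed in the growing retina, had 11.36 and 11.20 at 24 hpf, against 6.58 and 6.60 at 12 hpf and was at least 25.8-fold higher. Both genes were picked for large called changes, so the gap between the ages follows from the selection. The eye genes mab21l1 and foxd1 rose by 4.49 and 4.26 and the Wnt inhibitor sfrp1a fell by 2.56. Of 25 measured eye genes 17 rose and 5 fell, with a median of 1.47, and of the 18 above background on all 4 arrays 12 rose and 5 fell. In the lens, 21 of 29 measured genes rose and 6 fell, and 12 of the rises were genes switched on. Of the 12 lens genes above background on all 4 arrays 7 rose and 3 fell, and the list median of 0.65 was 0.18 with no filter on background and 1.95 with the scanner's processed signals. The beta crystallin cryba1b was at least 81.1-fold higher, with 12.77 and 12.73 at 24 hpf, against 6.47 and 6.36 at 12 hpf, cryba4 rose by 4.32 and crybb1 was at least 12.7-fold higher. Of 8 measured beta crystallins 7 rose, with a median of 2.68. Of these rises 5 were genes switched on, and only 1 of the 8 was above background on all 4 arrays. Of 9 measured gamma crystallins 5 rose and 3 fell, with a median of 0.58, and crygm3 was switched off, at least 5.61-fold lower at 24 hpf. Of the 5 gamma crystallins above background on all 4 arrays 3 rose and 1 fell. Gamma crystallin genes are near-identical copies whose probes may share signal, and a further 17 lens genes on the array were not well above background.

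Neural crest genes moved both ways. Of 21 measured crest genes 11 rose (52.4%) and 6 fell (28.6%), against 35.5% and 42.6% of all genes, with a median of 0.3. The AP-2 factor tfap2e rose by 3.49, barx1, a gene of the pharyngeal arches, by 2.4 and sox10, needed for pigment and glial fates, by 2.14, whereas the border gene tfap2a changed by -1.0 and the endothelin receptor gene ednraa by -1.64. Of 22 measured pigment genes 17 rose and 3 fell, and 8 of the rises were genes switched on. Of the 14 above background on all 4 arrays 9 rose and 3 fell, with a median of 0.54, against 0.92 over the measured members, which was 2.61 with processed signals. The melanin enzyme tyrp1b had 12.54 and 12.39 at 24 hpf, against 6.26 and 6.43 at 12 hpf, and was at least 66.9-fold higher (adjusted p = 4.42e-08). The melanocyte channel gene trpm1b was at least 21.3-fold higher, the melanocyte regulator mitfa at least 19.5-fold, and the pteridine enzyme gch2 of yellow pigment cells rose by 5.15. The 3 that fell, pnp4a of iridophores at -1.26, pts at -0.88 and paics at -0.81, are enzymes of purine or pteridine metabolism, which other cells use too.

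Notochord genes moved both ways. Of 27 measured genes 15 rose (55.6%) and 9 fell (33.3%), against 35.5% and 42.6% of all genes. Their median was 0.35, and -0.0561 under scaling to the 75th percentile. The cartilage collagen gene col9a2 had 14.33 and 14.40 at 24 hpf, against 7.68 and 7.96 at 12 hpf, a rise of 6.55. The gene cmn, which encodes calymmin of the notochord sheath, was at least 63.4-fold higher. The caveolar gene cavin4b was at least 67.3-fold higher, but whole-embryo RNA does not show whether this rise was in notochord or another tissue. The homeobox gene noto, which sets notochord identity, had 10.46 and 10.58 at 24 hpf, against 13.70 and 13.69 at 12 hpf, a change of -3.18 (adjusted p = 2.26e-07). The brachyury gene tbxta changed by -1.55, the Hedgehog ligand shhb by -1.65 and lama1, a laminin chain of the sheath basement membrane, by -2.18, while shha rose by 1.13. Genes of connective tissue matrix were mostly higher: 26 of 33 measured genes rose and 4 fell, with a median of 2.0, and of the 22 above background on all 4 arrays 15 rose and 4 fell. The collagen I genes col1a2, col1a1a and col1a1b rose by 6.76, 6.35 and 5.72, and the proteoglycan dcn by 4.91. The fibronectins fn1a and fn1b, which form matrix around young somites, changed by -2.07 and -1.0.

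Skin genes moved both ways, in shares near those of all genes. Of 43 measured epidermal genes 16 rose (37.2%) and 20 fell (46.5%), against 35.5% and 42.6% of all genes. The median was -0.06, close to that of all genes. The type I keratin krt1-19e had 13.19 and 13.02 at 24 hpf, against 6.43 and 6.56 at 12 hpf, and was at least 97.4-fold higher, and the tight junction gene cldn1 rose by 5.52. The keratin krt99, with 13.30 and 13.56 at 24 hpf, against 16.34 and 16.44 at 12 hpf, changed by -2.96 (adjusted p = 9.74e-07), and krt97 by -2.37. Of 17 measured keratins 6 rose and 8 fell, and some of their probes may share signal. Of the 13 keratins above background on all 4 arrays 3 rose and 7 fell, with a median of -0.34. The annexin gene anxa1a changed by -2.06 and the claudin gene cldne by -1.67. Among genes of ionocytes, the skin cells that take up ions, and of mucous cells, 18 of 27 rose and 6 fell, and of the 17 above background on all 4 arrays 10 rose and 5 fell. The sodium pump subunits atp1a1a.4, atp1a1a.2 and atp1b1b were switched on, at least 90.3-fold, 27.8-fold and 17.1-fold higher. The hatching gland list held 7 rises (43.75%) and 9 falls (56.25%) of 16, against 35.5% and 42.6% of all genes. The hatching enzymes he1.1 and he1.2 rose by 3.95 and 3.87 and the secretory gene agr2 by 4.01, whereas klf17, which specifies the gland, changed by -1.25 and the protease gene ctsl.1 by -2.23.

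Genes of endoderm, gut and pancreas moved both ways. Of 31 measured genes 14 rose (45.2%) and 15 fell (48.4%), against 35.5% and 42.6% of all genes, with a median of -0.14. The endoderm determinant sox32 had 6.52 and 6.75 at 24 hpf, against 12.41 and 12.33 at 12 hpf, a change of -5.73 (adjusted p = 5.76e-08), and its target sox17 was switched off, at least 3.91-fold lower. The Nodal-responsive homeobox gene mixl1 changed by -3.21 and the liver factor hnf4a by -2.71. The endocrine regulators insm1a and neurod1 rose by 3.9 and 3.88. The gene neurod1 is also counted among the neuronal genes, and whole-embryo RNA does not show in which tissue these rises were. The hormone genes ins and sst2 were at least 6.06-fold and 12.7-fold higher. The second insulin gene, insb, went the other way and fell by 3.29. Among yolk and plasma carrier genes 22 of 34 rose and 8 fell: the apolipoprotein gene apoa4a rose by 6.25 and the fibrinogen chain fgb by 5.55, and apoea was at least 30.5-fold higher. The yolk syncytial regulator mxtx2, with 1 array at 24 hpf missing, fell by 1.16.

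Germ layer and axis genes were lower almost throughout. Of 52 measured genes 49 fell, 2 rose and bmp4 did not pass the test (0.21), with a median of -1.81. The organizer homeobox gene gsc had 7.06 and 7.30 at 24 hpf, against 13.49 and 13.51 at 12 hpf, a change of -6.32 ± 0.1 (adjusted p = 4.05e-08). The secreted Bmp inhibitor chrd, with 8.80 and 8.73 at 24 hpf, against 13.55 and 13.65 at 12 hpf, changed by -4.83 and the Wnt inhibitor frzb by -4.71. On the ventral side the homeobox repressors ved, vox and vent changed by -4.02, -3.14 and -3.23. Dorsal and ventral genes thus fell over the same interval. The Nodal ligand ndr2 was switched off, at least 3.56-fold lower, and the Nodal antagonist lft1 and cofactor foxh1 changed by -3.65 and -3.42. The posterior factors cdx1a and cdx4 changed by -6.37 and -3.81, and the Wnt genes wnt8a and wnt8-2 by -4.1 and -5.2. The homeobox gene six7 had the largest fall of all genes above background on all 4 arrays, with 6.72 and 6.89 at 24 hpf, against 13.76 and 13.86 at 12 hpf (adjusted p = 2.70e-08). The genes that rose were smad3a, a Nodal signal transducer, at 0.92, and klf2b, at 0.87, whose other probe read -0.61.

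Segmentation genes fell in most cases: 37 of 49 were lower and 8 higher, with a median of -1.27. The T-box gene tbx16, which controls exit from the tailbud, had 10.56 and 10.59 at 24 hpf, against 14.01 and 14.07 at 12 hpf, a change of -3.47 (adjusted p = 1.16e-07). The clock genes her1 and her7, which oscillate in the presomitic mesoderm, changed by -2.05 and -3.25, and the Notch ligand dlc by -1.45. Genes of the boundary-forming step, mespba, ripply1 and ripply2, changed by -3.0, -2.09 and -2.6. The retinoic acid hydroxylase cyp26a1 fell by 2.12. Among the rises were evx1, a gene of tail and interneurons, at 2.88, and the Notch ligand dld at 1.21.

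Oocyte and maternal mRNAs had the lowest median of the lists. Of 39 measured genes 36 fell and 0 rose, with a median of -2.58. The linker histone h1m of eggs had 7.84 and 8.14 at 24 hpf, against 13.10 and 12.78 at 12 hpf, a change of -4.95 ± 0.14 (adjusted p = 3.77e-07). The factors pou5f3 and nanog, which help to start zygotic transcription, changed by -4.56 and -4.22. The 7 measured zona pellucida genes, which encode the egg coat, all fell, with changes between -2.96 (zp3b) and -2.19 (zp2.5), and some of their probes may share signal. The cyclin ccna1 of early cleavages was switched off, at least 6.89-fold lower. Germ cell genes moved the same way, 15 of 18 down and 1 up. The germ plasm helicase ddx4, with 7.75 and 7.80 at 24 hpf, against 10.37 and 10.28 at 12 hpf, changed by -2.55 and dazl, an RNA-binding protein of germ cells, by -3.57. The single rise, rbpms2b at 0.64, did not hold when its probes were averaged (0.14), and its other probe read -0.36.

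Cell division genes fell by less. Of 71 measured genes 51 fell, 7 rose and 13 did not pass the test, with a median of -0.53. The cyclin ccne1, which starts S phase, had 10.30 and 10.17 at 24 hpf, against 12.66 and 12.47 at 12 hpf, a change of -2.33 (adjusted p = 1.95e-06). The 7 measured mcm genes, most of which encode the replicative helicase, all fell, from -0.43 (mcm4) to -1.26 (mcm10), as did the 6 measured cyclins of the A, B and E types. The mitotic cyclin ccnb2 changed by -1.67 and dhfr, an enzyme of nucleotide supply, by -2.13. Among the rises were ccnd2a, a cyclin of the G1 phase, at 1.66 and cks2, which binds cyclin-dependent kinases, at 1.22.

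The hox genes, which give body segments their identity and are activated in order from paralog group 1 to group 13, differed along the axis. At the posterior end 4 of 4 genes of group 11, 3 of 3 of group 12 and 5 of 6 of group 13 rose, with medians of 1.19, 2.33 and 1.96. The tail gene hoxc13a had 12.07 and 12.03 at 24 hpf, against 7.17 and 7.32 at 12 hpf, a rise of 4.81 (adjusted p = 6.25e-08). Of 20 measured posterior genes 6 were switched on, all in groups 11 to 13: hoxa11a, hoxc12a, hoxc12b, hoxa13a, hoxc13b and hoxd13a. Kept only through 24 hpf, they had to rise, and they count in the medians of these groups. Of them hoxd13a and hoxc12a were at least 7.98-fold and 5.02-fold higher. In group 12 only hoxd12a, which rose by 3.12, was measured at both ages. In group 13 hoxb13a and hoxc13a were and rose, while hoxa13b did not pass the test (-0.12). Of the 14 posterior genes above background on all 4 arrays 9 rose and 4 fell, with a median of 0.77, against 1.25 over the measured members. In group 9, 3 of 4 genes fell, with a median of -0.67, and hoxb10a changed by -1.3. In the middle groups hoxb8a rose by 1.66 whereas hoxc6b, with 8.69 and 8.93 at 24 hpf, against 11.12 and 11.10 at 12 hpf, changed by -2.3 and hoxb7a by -1.12. At the anterior end 11 of 14 genes rose, hoxa2b and hoxc4a by 2.05 and 2.44. The falls there were hoxb1b, at -1.74 with 1 array at 12 hpf missing, hoxb1a, at -1.19, and hoxc3a, at -1.4.

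**Figure D4:**
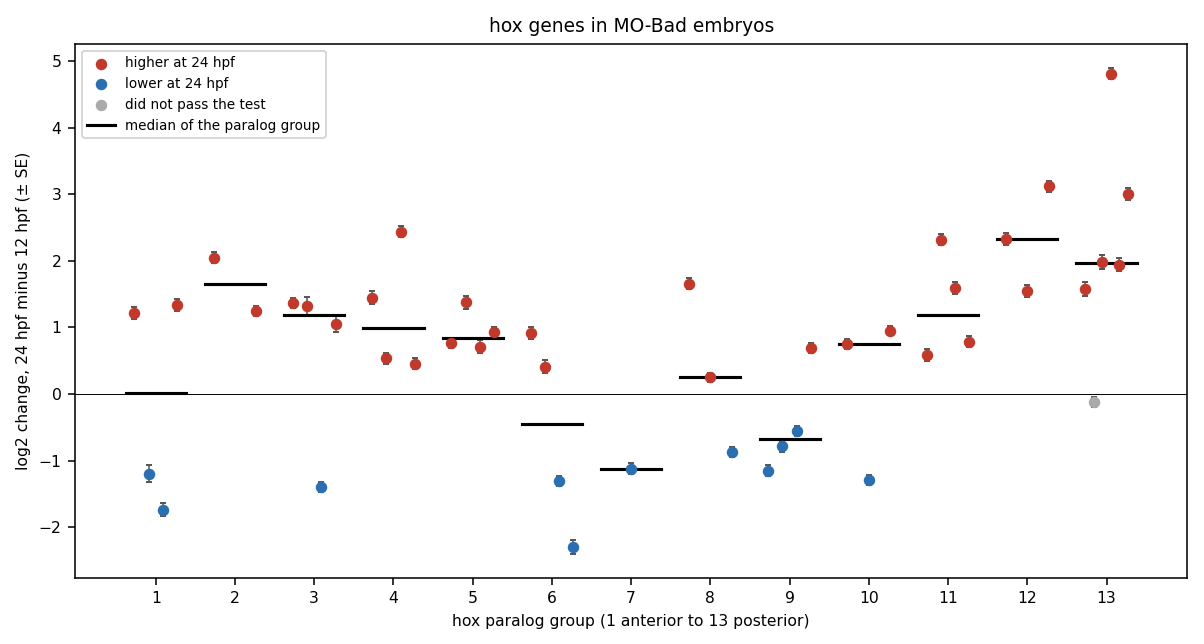
Log2 change between 24 and 12 hpf in MO-Bad embryos (y axis, ± SE, 2 arrays per age) of each measured hox gene by paralog group (x axis, 1 anterior to 13 posterior), coloured by call, with bars at the group medians. The medians of groups 11, 12 and 13 are 1.19, 2.33 and 1.96, and that of group 9 is -0.67. Groups 11, 12 and 13 include genes above background at 24 hpf only, which had to rise.

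Of 66 measured respiratory chain and ATP synthase genes 57 rose and 1 fell, with a median of 0.61, below the median size of 0.73 of all called changes. When each array was scaled to its 75th percentile the median was 0.17, against -0.29 for all genes. By complex, 27 of 29 measured complex I genes rose, 4 of 5 of complex II, 7 of 7 of complex III, 8 of 10 of complex IV and 10 of 11 of ATP synthase. The complex I subunit ndufb10 had 14.79 and 14.77 at 24 hpf, against 13.37 and 13.28 at 12 hpf, a rise of 1.46, and sdhc of complex II rose by 1.35. The 1 gene that fell was cox4i2, an isoform of a complex IV subunit, at -0.64. Glucose metabolism had 35 of 46 genes up and 7 down, with a median of 0.73, which was 1.2 with processed signals. The aldolase aldoab had 17.21 and 17.24 at 24 hpf, against 8.56 and 8.54 at 12 hpf, a rise of 8.67 (adjusted p = 1.32e-08). The muscle glycogen phosphorylase pygma was at least 75.6-fold higher and the enolase eno1a rose by 5.86. The mitochondrial carboxykinase gene pck2, which feeds glucose synthesis, fell by 1.94. The sarcomere list moved with these enzymes, with a median of 4.65, and its part in their rise was not tested.

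Changes of ribosomal protein genes were small: 32 of 77 were called higher and 0 lower, with a median of 0.11. One example was rplp1, a gene of the ribosomal stalk, with 16.14 and 15.97 at 24 hpf, against 15.05 and 15.24 at 12 hpf, a rise of 0.91. The direction of the list depends on scaling, since its median was -0.26 when each array was scaled to its 75th percentile, under which the median of all genes was -0.29.

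The presumed target itself fell. The 1 probe of badb, the Bad gene measured here, had 10.11 and 10.33 at 24 hpf, against 11.44 and 11.44 at 12 hpf, a change of -1.22 ± 0.09 (adjusted p = 3.30e-05). In wild type its change was -1.1, and the difference between the 2 changes was -0.06 (adjusted p = 0.767). Since the kind of morpholino is not stated and one that blocks translation need not lower its target's RNA, this probe does not check the knockdown. Within the Bcl-2 family 17 genes were measured, of which 5 were higher (29.4%) and 10 lower (58.8%), with a median of -0.37. Of all genes 35.5% were higher and 42.6% lower. The survival gene bcl2a rose by 2.31, the BH3-only genes bik and bmf1 changed by -2.05 and -1.5, and bbc3, the BH3-only gene known as Puma, rose by 0.98, its other probe reading -0.33. Of 24 measured caspases, adaptors and inhibitors 8 rose (33.3%) and 10 fell (41.7%), with a median of 0.01. These shares lay near the 35.5% and 42.6% of all genes. The inflammatory caspase caspb rose by 3.91, while casp2, the Smac homologue diabloa and the survivin birc5b changed by -1.33, -1.92 and -2.02.

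Stress and clock genes showed single large changes within lists whose medians lay near 0. Of 41 heat shock and unfolded protein genes 15 rose (36.6%) and 14 fell (34.1%), against 35.5% and 42.6% of all genes. The muscle chaperone hsp90aa1.1 rose by 3.65, and the small heat shock gene hspb1 changed by -2.94 (adjusted p = 1.47e-06). Of 30 clock genes 9 rose (30%) and 16 fell (53.3%), with a median of -0.25. The period gene per1b had 12.83 and 12.96 at 24 hpf, against 8.32 and 8.39 at 12 hpf, a rise of 4.54 (adjusted p = 7.02e-08), while its copy per1a changed by -0.61, the photolyase relative cry5 by -1.55 and the clock repressor bhlhe41 by -2.04. The labels used here give no clock time of sampling. Of 22 retinoic acid genes 9 rose (40.9%) and 11 fell (50%), with a median of -0.17, and 3 of the rises were genes switched on. Of the 19 above background on all 4 arrays 6 rose and 11 fell, with a median of -0.76. The carriers crabp1b and rbp5 rose, at least 27.8-fold and by 3.91, and dhrs3b, a retinal reductase, fell by 1.68. Of 46 cilia genes 23 rose (50%) and 14 fell (30.4%). Among axonemal genes 18 of 23 were higher and 2 lower (dnali1 at 1.93, tekt4 at 1.6). Of 6 intraflagellar transport genes 1 was higher and 5 lower (ift57 at -0.95), and the difference between these groups was not tested. Of 23 oxygen carriage and hypoxia genes 12 rose (52.2%) and 6 fell (26.1%). The globin cygb1 rose by 4.36 and the mTOR inhibitor ddit4, with 10.03 and 9.78 at 24 hpf, against 11.88 and 11.54 at 12 hpf, changed by -1.8.

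The same interval in wild type, read in Cy3 on the same arrays, had 3393 higher (34.0%) and 4136 lower (41.5%) of 9967 genes, 75.5% in either direction. Of genes called in both, 6848 moved in the same direction in MO-Bad and wild type and 19 in opposite directions. Sarcomere genes had a median change of 4.65 in MO-Bad and 4.02 in wild type, and maternal mRNAs -2.58 in MO-Bad and -2.03 in wild type. The sign of the median differed in lists where it lay near 0: epidermis, with -0.06 in MO-Bad and 0.17 in wild type, heat shock, with -0.04 in MO-Bad and 0.06 in wild type, endoderm, with -0.14 in MO-Bad and 0.00347 in wild type, and caspases, with 0.01 in MO-Bad and -0.08 in wild type. Single-channel changes tended to be larger in Cy5. Of the 327 genes at least 8-fold higher in MO-Bad, 290 changed more in Cy5, with medians of 4.12 in MO-Bad and 3.78 in wild type, and of the 88 at least 8-fold lower 78 did, with medians of -3.52 in MO-Bad and -3.15 in wild type. These genes were picked by their MO-Bad change, and MO-Bad was always in Cy5, so dye and treatment cannot be told apart in such pairs.

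The difference between the 2 changes was therefore tested on ratios within arrays after loess normalization, which removes the intensity-dependent part of a dye difference. It was above 0 for 406 genes (3.98%) and below 0 for 698 (6.84%) of 10206, 10.8% in all. These calls depend on the normalization: 0 genes passed with the scanner's processed signals, with median-centred ratios or with the deposited log ratios, where 2206, 398 and 2248 genes had an unadjusted p under 0.05, against 3022 with loess. With an offset of 16 units 377 genes passed, 132 above 0 and 245 below, and with the channels normalized alone 1794 passed, 980 above 0 and 814 below, so the side with more calls also depends on this choice. Without the first MO-Bad array at 24 hpf 528 genes passed, without the second 619, and without the first array at 12 hpf 607. Segmentation genes had 20 of 49 differences below 0, germ layer genes 19 of 52 and oocyte and maternal mRNAs 13 of 39. A difference below 0 is a larger fall or smaller rise in MO-Bad. The median differences of the lists were -0.26, -0.24 and -0.2. These are lists with large falls, and among the 88 genes at least 8-fold lower 44 had a called difference, with a median of -0.33. The germ layer list shares genes with each of the others, and these are counted in each. Examples in both the segmentation and the germ layer list were tbx16 and cdx4. The first changed by -3.47 in MO-Bad and by -1.85 in wild type, the second by -3.81 in MO-Bad and by -2.6 in wild type. Of 43 epidermal genes 13 had a difference below 0 and 1 above, and of 23 myogenic regulators 7 below and 0 above, among them myf5, with a change of -2.58 in MO-Bad and -1.46 in wild type. The BH3-only gene bbc3 changed by 0.98 in MO-Bad and by -0.16 in wild type, while its other probe read -0.33 in MO-Bad. Of 36 sarcomere differences 6 were above 0 and 1 below.

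**Figure D5:**
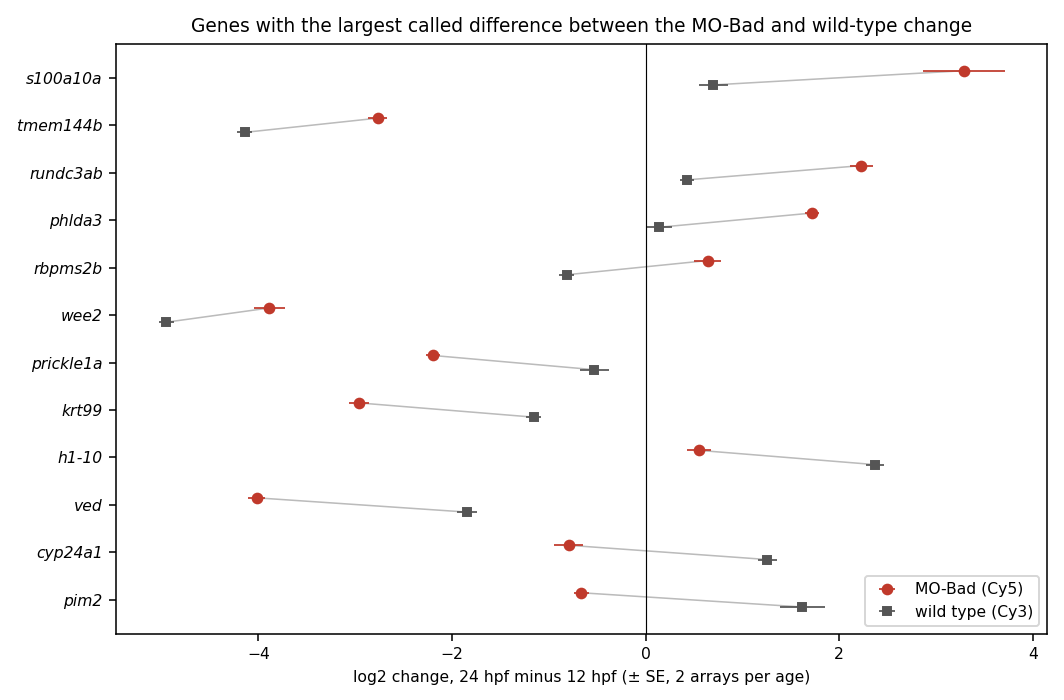
Log2 change between 24 and 12 hpf (x axis, ± SE, 2 arrays per age) in MO-Bad (red circles, Cy5) and wild type (grey squares, Cy3) for the 12 genes with the largest called differences, 6 above 0 and 6 below 0 (y axis). The MO-Bad and wild-type changes of pim2, cyp24a1 and rbpms2b lie on opposite sides of 0. For rbpms2b this holds for the probe shown, and its other probe read -0.36 in MO-Bad.

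Of the 12 genes with the largest differences, 6 rose more or fell less in MO-Bad. The annexin partner s100a10a changed by 3.29 ± 0.42 in MO-Bad, with 10.86 and 12.36 at 24 hpf, against 8.22 and 8.42 at 12 hpf, and by 0.7 in wild type. Its 2 arrays at 24 hpf lay far apart, though both were above the arrays at 12 hpf, and its difference did not pass with robust variance moderation in limma (adjusted p = 0.0783). The Akt inhibitor phlda3 changed by 1.72 in MO-Bad, with 12.90 and 12.85 at 24 hpf, against 11.15 and 11.16 at 12 hpf, and by 0.14 in wild type, and rundc3ab by 2.23 in MO-Bad and 0.43 in wild type. The maternal kinase gene wee2 changed by -3.89 in MO-Bad and by -4.95 in wild type. The oocyte and maternal list went mostly the other way, with 13 of 39 differences below 0 and 2 above. The gene tmem144b changed by -2.77 in MO-Bad and -4.14 in wild type, and rbpms2b by 0.64 in MO-Bad and -0.81 in wild type. The other probe of rbpms2b read -0.36 in MO-Bad, and the gene's rise there did not hold when its probes were averaged. The other 6 genes rose less or fell more in MO-Bad. The kinase gene pim2, which promotes cell survival, had 11.57 and 11.62 at 24 hpf, against 12.20 and 12.31 at 12 hpf in MO-Bad, a change of -0.66, and changed by 1.62 in wild type. The vitamin D hydroxylase cyp24a1 changed by -0.79 in MO-Bad and by 1.26 in wild type. Both therefore fell in MO-Bad over an interval in which they rose in wild type. The ventral repressor ved changed by -4.02 in MO-Bad and by -1.85 in wild type, and the linker histone h1-10 by 0.55 in MO-Bad and 2.37 in wild type. The keratin krt99 changed by -2.96 in MO-Bad and by -1.15 in wild type, and prickle1a, a planar polarity gene, by -2.2 in MO-Bad and -0.53 in wild type.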

How the data were processed

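The authors deposited scanner output of 2-colour Agilent arrays, read with Agilent Feature Extraction 10.5.1.1 per the submitters' processing notes, with spot and local background values in units of intensity. The authors' files also give the scanner software's own processed intensity, and their value table holds log10 ratios of Cy5 over Cy3. Per the labels RNA was extracted with Trizol and 1 µg was labelled with the Quick Amp kit, MO-Bad in Cy5 and wild type in Cy3.

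On median signals, limma's normexp correction was run with an added 50 units, and the 4 Cy5 channels were quantile normalized. Control spots (1417 of 45220 on each array) were dropped, leaving 43803 spots. The 6 to 12 outlier spots of an array were set to missing, and spots of the same probe were averaged, giving 43603 probes. The 27906 probes above background on both arrays of at least 1 age were kept. Ages were compared with limma 3.58.1 under R 4.3.3 (two-sided, Benjamini-Hochberg over probes), with no other covariate. This fit had 2 residual degrees of freedom, and the moderation of variances over probes had 4.58 prior degrees of freedom. The difference from wild type was tested in the same way on loess-normalized log2 ratios over 28320 probes. The fit alone, without normalization, was run on simulated levels with few changed probes. That run cannot show how calls behave where most genes change or under another normalization. Replicate numbers did not pair the samples: deviations of same-numbered arrays correlated at -0.08. A gene was its brightest probe. A probe below background at 1 age has only a bound, its fold against the higher of its own signal and the array's lowest signal above background. As stated above, this bound lies close to the measured fold. The number of arrays limits precision.

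RefSeq accessions gave 16770 of 43603 probes a symbol. The 38 gene lists comprised 1756 entries (21 without a matching symbol), and 1169 distinct genes of them were measured. The genes named were the 12 largest rises and falls above background on all 4 arrays, the 8 largest bounds each way, up to 4 members of a list in its main direction and 2 in the other, the 6 largest differences from wild type each way, and badb, 247 in all. Other list members named for a textbook role were chosen after their values were seen. The comparisons, lists and rule were chosen with earlier results of these data known. Probe and promoter sequences were not used here, and 1 further gene list and some single genes are not reported here.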

Additional observations from a re-analysis of the deposited data

Results flagged for a closer look

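The 12 genes below were picked for the largest differences, in each direction, between the MO-Bad change and the wild-type change over the same interval. They were taken by size from the 1104 of 10206 genes for which the test of this difference passed its threshold. Passing the test therefore does not set them apart. The differences, MO-Bad minus wild type on the log2 scale, were 2.29 for s100a10a, 1.79 for tmem144b, 1.58 for rundc3ab, 1.56 for phlda3, 1.51 for rbpms2b and 1.5 for wee2. They were -2.24 for pim2, -2.04 for cyp24a1, -1.83 for ved, -1.77 for h1-10, -1.62 for krt99 and -1.56 for prickle1a. Adjusted p-values in limma lay between 4.80e-05 and 0.00117. The same sign in all 4 pairings of a 24 hpf array with a 12 hpf array was a condition of their selection. None of the 12 passed with processed signals, median centring or the deposited log ratios, where no gene did, and s100a10a also failed with robust variance moderation in limma (2.29, adjusted p = 0.0783), where 1212 genes passed. All 12 kept their sign under each alternative run.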

How the results depend on the processing

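Under scaling to the 75th percentile 2320 genes were higher in MO-Bad, 35.6% of calls against 45.4% with quantile normalization (wild type 32.0% against 45.1%). No other setting moved a MO-Bad or wild-type count by over 1.5 times, and leaving out an array gave 7036 to 7392 genes changed in MO-Bad (3218 to 3371 higher, 3818 to 4049 lower). With the replicate number as a block, 7721 genes changed in MO-Bad, 1079 differed from wild type and 7219 changed in wild type. Calls of a difference from wild type numbered 0 with processed signals, median centring or deposited ratios (0 above, 0 below), 377 with an offset of 16 (132 above 0, 245 below) and 1794 with channels normalized alone (980 above 0), and 528 to 875 without an array (185 to 299 above, 343 to 576 below). The cause was not tested. Counting each list once under each alternative, its median stayed within the spread between replicates in 354 cases, moved beyond it in 202 and changed sign in 14. With processed signals, medians were 1.95 for lens (0.65 before), 2.61 for pigment (0.92), 2.85 for neuronal genes (1.51) and 2.7 for posterior hox genes (1.25). They were also 6.45 for sarcomere genes (4.65 before) and 5.12 for muscle excitation (3.77). With no filter they were 0.18 for lens and 0.27 for blood and endothelium, and under the 75th percentile -0.94 for cell cycle, 0.17 for the respiratory chain and 0.02 for hypoxia. Others changed sign. Under the 75th percentile these were neural progenitors (-0.00103), notochord (-0.0561), ribosomal proteins (-0.265) and caspases (-0.213). With all 4 arrays above background they were heart (-0.154) and macrophages (-0.121). Leaving out an array gave -0.107 to 0.0116 for heat shock, above 0 without the first 12 hpf array, and -0.0343 to 0.00858 for caspases, below 0 without the first 12 hpf or the second 24 hpf array. Caspases were also below 0 with processed signals (-0.045), offset 16 (-0.00823), no background subtraction (-0.0449), no filter (-0.0195) and probes averaged (-0.0238). Counting each named gene once under each alternative, its change kept its call in 3648 cases, lost it in 7 (smyhc2, rps10, rps27.2, rpl28 and h1-10 under the 75th percentile, klf2b and rbpms2b with probes averaged) and 0 reversed. Of 3433 genes with several probes 96 had probes called in opposite directions. Signal limits the list members not well above background, for which no change was measured.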

Other observations

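Some genes outside the lists also had large changes. In MO-Bad embryos the transglutaminase gene tgm2a was switched on, with 12.97 and 12.95 at 24 hpf against 6.30 and 6.15 at 12 hpf, at least 103-fold higher. The lipoxygenase gene alox5b.3 fell by 5.02, nnr changed by -5.24, ankrd31 by -4.77 and the steroid enzyme gene hsd3b2, with 7.94 and 8.20 at 24 hpf against 12.72 and 12.54 at 12 hpf, by -4.56. The arrestin gene arr3b was at least 7.04-fold lower at 24 hpf, the carbonic anhydrase gene ca9 at least 4.53-fold, the elongation factor gene eef1a1l3 at least 4.16-fold and ube2v1 at least 3.90-fold.

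The 19 genes called in opposite directions in MO-Bad and wild type were named after their values were seen. Those lower at 24 hpf in MO-Bad and higher in wild type included, beside pim2 and cyp24a1, the survival gene mcl1b (-0.28 in MO-Bad, 0.96 in wild type), ccng2 (-0.58 in MO-Bad, 0.49 in wild type), ivns1abpb (-0.92 in MO-Bad with 1 array at 24 hpf missing, 0.35 in wild type) and the stress gene ppp1r15a (-0.42 in MO-Bad, 0.59 in wild type). Those higher in MO-Bad and lower in wild type included the immediate-early gene fosab (0.62 in MO-Bad, -0.49 in wild type), the Notch modifier lfng (0.32 in MO-Bad, -0.25 in wild type) and the lipoprotein receptor vldlr (0.75 in MO-Bad, -0.31 in wild type).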
